A study of Mus musculus with 8 samples.

Results

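Ppbp, Plekhs1, Anxa1, Tff2, Ccdc80 and Igfbp6 are 6 genes that varied together among the tumour cells of mouse hepatomas. They are 6 of the 2000 genes of a single-cell expression table, and they were picked from these same cells, so their levels and correlations are given as descriptions with no test. The tumours grew from Hepa1-6, a mouse hepatoma cell line, and their dissociated cells, with red blood cells lysed, were sequenced in droplets from the 3′ end of transcripts. The labels name 4 groups. They are unedited tumours given intraperitoneal PBS, unedited tumours given anti-PD-1 antibody, Soat1-edited tumours given PBS, and Soat1-edited tumours given the antibody. Soat1 encodes an enzyme that esterifies cholesterol. For the edited tumours the titles say knockout where the genotype entries say knockdown. All 4 groups come from the same cell line, and the number, strain and age of the mice are not given in the sources used here. Each group has a cDNA entry and an oligo entry, which makes 8 entries.

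The 53528 cells of the table form 6 sets of 7569 to 11813 cells, marked by a number from 1 to 6 at the end of each cell's name. Nothing ties these sets to the 4 groups, so the table was treated as 1 pooled sample and no genotype or treatment was compared. The cell names are serial numbers and not barcodes, so cells that sets share could not be counted. The values are natural logs of 1 plus UMIs (unique molecular identifiers, counted transcripts) per 10000. Set 1 held 9370 cells, and its values gave back whole UMI counts, with 1001 to 261833 UMIs per cell. The other 5 sets held values below 0 from a step that no label records, so levels come from set 1 alone, as CPM (a gene's UMIs per 1000000 UMIs of a class). Cells were assigned to a class by marker genes other than the 6 genes. In set 1 this gave 5098 hepatoma-gated, 72 fibroblast-gated, 590 macrophage-gated, 67 neutrophil-gated and 1289 T cell-gated cells, while 2254 cells stayed in no class. Their median UMIs per cell were 19400, 6858, 2884, 1246 and 4784 in that order. Markers of the hepatoma list summed to 12460 CPM in hepatoma-gated cells and 1228 CPM in T cell-gated cells. Of its 14 markers, Mdk and H19 were almost absent, with a UMI in 25 and 9 hepatoma-gated cells.

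Liver tumour cells can keep the secretory programme of hepatocytes or lose it in favour of genes of epithelial progenitors, repair and motility. Albumin (Alb) and transthyretin (Ttr) are secreted plasma proteins that mark the hepatocyte programme. Cyclin D1 (Ccnd1) drives cells into the division cycle and is a known target of growth factor and Wnt signalling. Among the 6 genes, Ppbp encodes a platelet chemokine that, once trimmed, acts on the neutrophil receptor CXCR2. Anxa1 encodes annexin A1, a phospholipid-binding protein that signals through formyl peptide receptors and dampens inflammation. Tff2 encodes a trefoil factor, a secreted peptide of mucosal repair. Igfbp6 encodes a secreted binding protein that prefers IGF2. Ccdc80 encodes a secreted matrix protein, and Plekhs1 a protein with a pleckstrin homology domain.

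The RefSeq promoter table (GRCm38.p6) had a window for 4 of the 6 genes, Ppbp, Plekhs1, Anxa1 and Igfbp6. The 250 bases before the start of 3 of them are shown, because Ppbp and Anxa1 were higher in the same tumour cells, while Igfbp6 differed from the others against Ttr. Ppbp is at chr5:90768268-90768517 on the plus strand, Anxa1 at chr19:20390672-20390921 on the minus strand and Igfbp6 at chr15:102143936-102144185 on the plus strand. Capitals mark matches on either strand to 5 motifs. The AP-1 motif was searched as TGANTCA. The TEAD motif was searched as GGAATG, and the TATA box as TATAAA. The 5 bases CCAAT stood for the CCAAT box. Part of the HNF1 site was searched as GTTAAT. The AP-1 motif reads alike on both strands, so its match in Ppbp is 1 stretch of letters, and no match overlapped one of another motif.
Ppbp: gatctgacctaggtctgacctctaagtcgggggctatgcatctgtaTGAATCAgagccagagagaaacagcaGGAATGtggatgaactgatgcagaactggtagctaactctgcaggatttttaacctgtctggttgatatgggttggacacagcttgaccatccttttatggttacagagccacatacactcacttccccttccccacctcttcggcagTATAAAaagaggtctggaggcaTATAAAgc
Anxa1: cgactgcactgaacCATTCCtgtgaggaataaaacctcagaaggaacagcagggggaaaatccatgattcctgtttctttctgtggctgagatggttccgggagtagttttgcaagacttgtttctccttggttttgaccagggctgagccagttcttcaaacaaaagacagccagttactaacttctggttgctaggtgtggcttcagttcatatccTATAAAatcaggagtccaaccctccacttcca
Igfbp6: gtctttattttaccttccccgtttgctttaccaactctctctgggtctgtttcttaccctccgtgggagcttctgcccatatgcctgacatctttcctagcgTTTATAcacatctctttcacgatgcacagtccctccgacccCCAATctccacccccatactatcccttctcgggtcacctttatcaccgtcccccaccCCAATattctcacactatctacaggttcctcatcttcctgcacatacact

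The Ppbp window held the AP-1 motif, which 6.75% of the 32851 windows of this length hold, and 1 TEAD motif, which 12.6% hold. The Anxa1 window held a TEAD motif on the opposite strand. TATAAA began 30 bases before the start in Ppbp and 32 bases before it in Anxa1, and a second copy lay close to the Ppbp start. In Igfbp6 the TATA match was on the opposite strand, 148 to 143 bases before the start. TATAAA was present in 3 of the 4 windows and in 12.4% of all windows. CCAAT, in 33.8% of all windows, was found in Igfbp6 and Plekhs1. GTTAAT, in 6.43% of all windows, was found in none of the 4. A match is a stretch of letters and no evidence of binding.

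The 6 genes fell into 2 groups by the class in which they were highest. Ppbp, Plekhs1 and Tff2 were highest in hepatoma-gated cells, and Anxa1, Ccdc80 and Igfbp6 in fibroblast-gated cells. Of 1578 genes compared, 33.5% were highest in hepatoma-gated cells and 22.4% in fibroblast-gated cells, so a 3 to 3 split is close to the background. The same split was seen in 6 of 6 sets on the deposited log scale. It depended on the gate, since 1 of the 6 genes was highest in hepatoma-gated cells with a stricter gate. When cells were thinned to 2000 UMIs, 2 were. There Plekhs1 had 1 UMI in 14 neutrophil-gated cells (35.7 CPM, 0.904 to 199), beside 31.5 CPM in hepatoma-gated cells. In those neutrophil-gated cells 3 UMIs would have been 107 CPM, so the change for Plekhs1 cannot be read as an effect of depth. All but Anxa1 were at least 2 times higher in hepatoma-gated than in macrophage-gated cells (37.9% of genes) and than in T cell-gated cells (41.8%). RNA released from tumour cells also reaches droplets of other cells. The level of Alb in T cell-gated cells was 0.107 times that in hepatoma-gated cells, and in macrophage-gated cells 0.169 times (0.161 to 0.178).

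**Figure D1:**
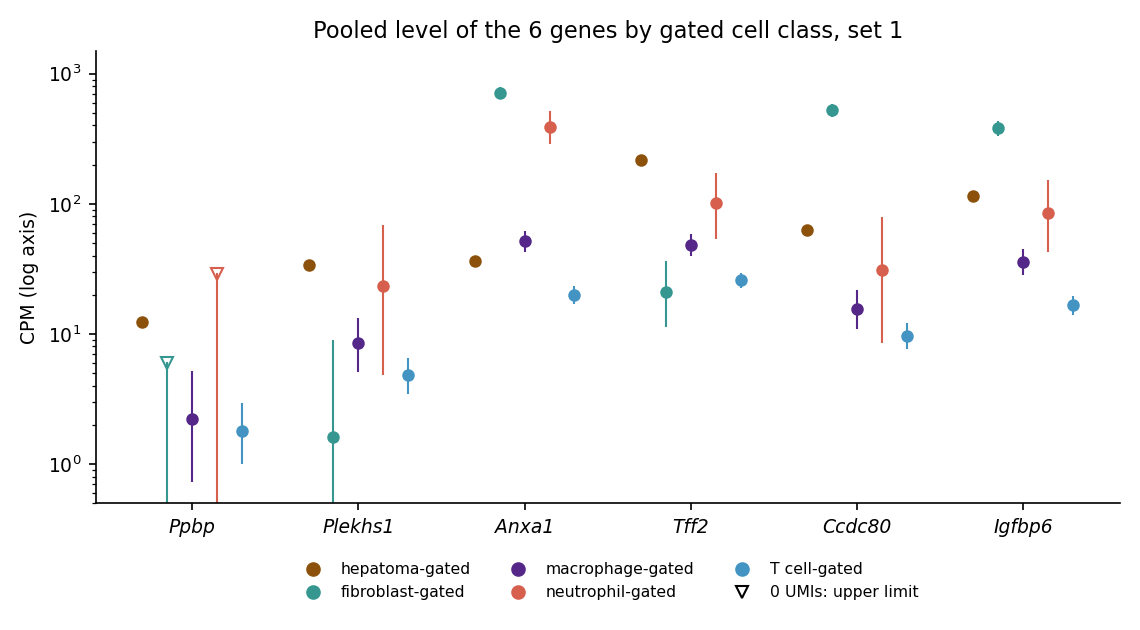
Level in CPM, on a log axis, of the 6 genes in the 5 gated classes of set 1. Points are pooled levels, bars are 95% Poisson intervals for counting error, cut at the bottom of the axis, and open triangles are upper limits where no UMI was counted. Anxa1, Ccdc80 and Igfbp6 are highest in fibroblast-gated cells, and Ppbp, Plekhs1 and Tff2 in hepatoma-gated cells except that the neutrophil limit for Ppbp lies above its hepatoma level.

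Ppbp, the chemokine, was the least abundant of the 6 in tumour cells. It had 1561 UMIs in hepatoma-gated cells of set 1, a level of 12.2 CPM (95% Poisson interval 11.6 to 12.9). No Ppbp UMI was counted in fibroblast-gated cells, where 3 UMIs would have been 4.87 CPM. The hepatoma level was 2.52 times that floor, taken over the class. The 95% upper limit for the fibroblast level was 5.98 CPM, and for its ratio to the hepatoma level 0.489. None was counted in neutrophil-gated cells either, but there the floor of 23.3 CPM is above the hepatoma level and no difference was detectable. Macrophage-gated cells had 5 UMIs (2.22 CPM, 0.721 to 5.18) and T cell-gated cells 15 (1.80 CPM, 1.01 to 2.96). The T cell level was 0.147 times the hepatoma level (0.0819 to 0.243), and this interval includes the ratio of Alb. Ppbp is best known from platelets and megakaryocytes. Of the 8 markers listed for them only 2, Pf4 and Clec1b, were in the table. Together these made up 2.69 CPM in hepatoma-gated cells and 434 CPM in macrophage-gated cells, where Pf4 had 767 UMIs. Whether those UMIs came from platelets or from the macrophages themselves was not tested. Over the 6 sets the mean Ppbp value in hepatoma-gated cells ran from 0.0591 to 0.0939 (median 0.0758), above the T cell range of 0.00924 to 0.0193.

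Plekhs1 stood at 33.8 CPM in hepatoma-gated cells (32.8 to 34.8), from 4311 UMIs. It was at 8.44 CPM in macrophage-gated cells and 4.79 CPM in T cell-gated cells, and fibroblast-gated cells had 1 UMI. Its T cell ratio of 0.142 and macrophage ratio of 0.250 (0.1501 to 0.390) had intervals (for T cells 0.101 to 0.193) that include those of Alb. Only 3 UMIs were counted in neutrophil-gated cells, which gives 23.3 CPM with an interval of 4.81 to 68.2, so hepatoma and neutrophil levels could not be separated. In the 6 sets its mean value in hepatoma-gated cells was 0.190 to 0.241 (median 0.219), and in fibroblast-gated cells it was between -0.0182 and 0.0222. The class ranges did not overlap.

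Tff2, the trefoil peptide, was the most abundant of the 6 in UMIs. Hepatoma-gated cells of set 1 held 27582 Tff2 UMIs, or 216 CPM (214 to 219). Fibroblast-gated cells had 21.1 CPM, macrophage-gated cells 48.4, neutrophil-gated cells 101 (53.8 to 173) and T cell-gated cells 25.9. The ratio of T cell to hepatoma levels was 0.120 (0.104 to 0.137), beside 0.107 (0.103 to 0.110) for Alb. The ratio of macrophage to hepatoma levels was 0.224 (0.184 to 0.270), a little above that of Alb. Mean values in hepatoma-gated cells of the 6 sets were 0.667 to 0.854 (median 0.731), and no other class exceeded 0.345 in any set.

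Anxa1 was a gene of several cell types. Its level was 715 CPM in fibroblast-gated cells (650 to 785) and 36.5 CPM in hepatoma-gated cells (35.5 to 37.6), a ratio of 19.6 (17.7 to 21.6). Macrophage-gated cells had 51.5 CPM (42.6 to 61.8) and T cell-gated cells 19.9 CPM (17.0 to 23.1). Its T cell ratio of 0.545 (0.464 to 0.636) and macrophage ratio of 1.41 (1.16 to 1.70) lay above those of Alb, while the T cell ratios of the other 5 genes were 0.120 to 0.156. Neutrophil-gated cells had 389 CPM from 50 UMIs, but 45 of these came from 3 cells. Those 3 cells had 1321 UMIs of S100a8, 102 UMIs of Lyz2, a gene of the macrophage list, and none of the neutrophil receptor gene Csf3r. Lyz2 alone does not tell macrophages from neutrophils, and the identity of these cells was not tested. Without them, a step chosen after seeing the data, the level was 48.4 CPM (15.7 to 113). In the 6 sets the mean Anxa1 value was 1.57 to 1.92 in fibroblast-gated cells (median 1.77) and 0.189 to 0.248 in hepatoma-gated cells (median 0.236). Hepatoma-gated cells exceeded macrophage-gated cells in 5 of 6 sets on this scale, and the 2 ranges overlapped. This order depended on the values below 0. With those set to 0, macrophage-gated cells were higher in set 2 (0.256 against 0.2104), set 4 (0.2899 against 0.2375) and set 6 (0.3025 against 0.276). Hepatoma-gated cells stayed higher in sets 1, 3 and 5.

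Ccdc80 and Igfbp6, both secreted, were shared by fibroblasts and tumour cells. Ccdc80 was at 522 CPM in fibroblast-gated cells (467 to 583) and 62.4 CPM in hepatoma-gated cells (61.01 to 63.8), a ratio of 8.37 (7.47 to 9.36). Macrophage-gated cells had 15.6 CPM of Ccdc80 and T cell-gated cells 9.70 CPM, or 0.156 times the hepatoma level (0.123 to 0.194). Igfbp6 was at 380 CPM in fibroblast-gated cells (332 to 431) and 115 CPM in hepatoma-gated cells (113 to 117), a ratio of 3.30 (2.89 to 3.76). Macrophage-gated cells had 36.0 CPM of Igfbp6 and T cell-gated cells 16.7 CPM, or 0.145 times the hepatoma level (0.122 to 0.171). Both T cell ratios lay a little above that of Alb, 0.107 (0.103 to 0.110). The macrophage ratio was 0.313 (0.248 to 0.389) for Igfbp6, above the 0.169 (0.161 to 0.178) of Alb. For Ccdc80 it was 0.249 (0.1735 to 0.347), an interval that overlaps that of Alb. For both genes the fibroblast value was above the hepatoma value in 6 of 6 sets. Ccdc80 means were 1.30 to 1.61 in fibroblast-gated cells and 0.346 to 0.409 in hepatoma-gated cells. Igfbp6 means were 1.04 to 1.73 and 0.590 to 0.638. Neither gene's fibroblast range overlapped its hepatoma range.

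The levels in tumour cells depended on how strictly hepatoma cells were gated. The gate uses genes such as Afp, Ahsg, Fga and Krt8, so it favours cells that kept hepatocyte genes. With a stricter gate of 1682 cells the 6 levels were lower, at 4.31 CPM for Ppbp, 14.9 for Plekhs1, 13.5 for Anxa1, 127 for Tff2, 35.7 for Ccdc80 and 90.4 for Igfbp6. With a gate of 6801 cells that only asks for the absence of other classes and 1 hepatoma gene, they were 14.8, 35.6, 41.6, 215, 67.4 and 113 CPM.

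Detection in tumour cells was patchy, and each of the 6 genes passed the minimum of 5% of cells used for correlations. In set 1, 13.1% of hepatoma-gated cells had a Ppbp UMI, 31.2% had Plekhs1, 31.0% Anxa1, 63.3% Tff2, 49.3% Ccdc80 and 69.4% Igfbp6. When each cell was thinned to 2000 UMIs, which left out 78 hepatoma-gated cells, these shares were 1.85%, 5.62%, 5.78%, 21.4%, 11% and 18.7%. In T cell-gated cells at the same depth, with 214 cells left out, they were 0.186%, 1.40%, 3.72%, 4.65%, 2.05% and 3.44%. In macrophage-gated cells at that depth, with 205 left out, they were 0.260%, 2.34%, 9.09%, 8.05%, 3.64% and 7.53%. Alb, as a measure of stray RNA, had a UMI in 57.5% of T cell-gated and 71.2% of macrophage-gated cells. The hepatoma share was above the T cell share for each of the 6 genes, and above the macrophage share for all but Anxa1. For Anxa1 the shares in both classes can also hold expression of those cells.

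The UMIs of 5 of the 6 genes were held by fewer cells, for their level, than those of the median gene. If every hepatoma-gated cell carried Ppbp at the pooled rate, 24.2% of cells would have had a UMI, and 13.1% did, a ratio of 0.541. The same ratio was 0.637 for Plekhs1, 0.606 for Anxa1, 0.688 for Tff2, 0.742 for Ccdc80 and 0.851 for Igfbp6, and the median over 1028 genes was 0.818. Igfbp6 was therefore spread about as evenly as a typical gene. The 510 cells richest in Ppbp held 89.9% of its UMIs, and those richest in Tff2 held 71.6%. Such a share also depends on how many UMIs a gene has. The highest single cell had 284 UMIs of Tff2, 88 of Anxa1 and 36 of Ppbp.

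Within hepatoma-gated cells of set 1, 12 of the 15 pairs of the 6 genes had a Pearson r of at least 0.1 on the log values, and 6 had at least 0.2. Over 527878 pairs of detected genes the shares were 11.3% and 3.66%, but the 6 genes were chosen for varying together and nothing is read from the excess. The median r of the 15 pairs was 0.144 over 5098 cells, beside 0.00404 for all pairs. The strongest pair was Anxa1 and Ccdc80 (0.266), then Anxa1 and Tff2 (0.264). Ppbp was more loosely tied, with r from 0.0548 for Plekhs1 to 0.144 for Anxa1. Tff2 and Igfbp6 were unrelated at -0.00434. The points share 1 library and its depth, and the median r was lower in cells thinned to fewer UMIs, as given further below.

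**Figure D2:**
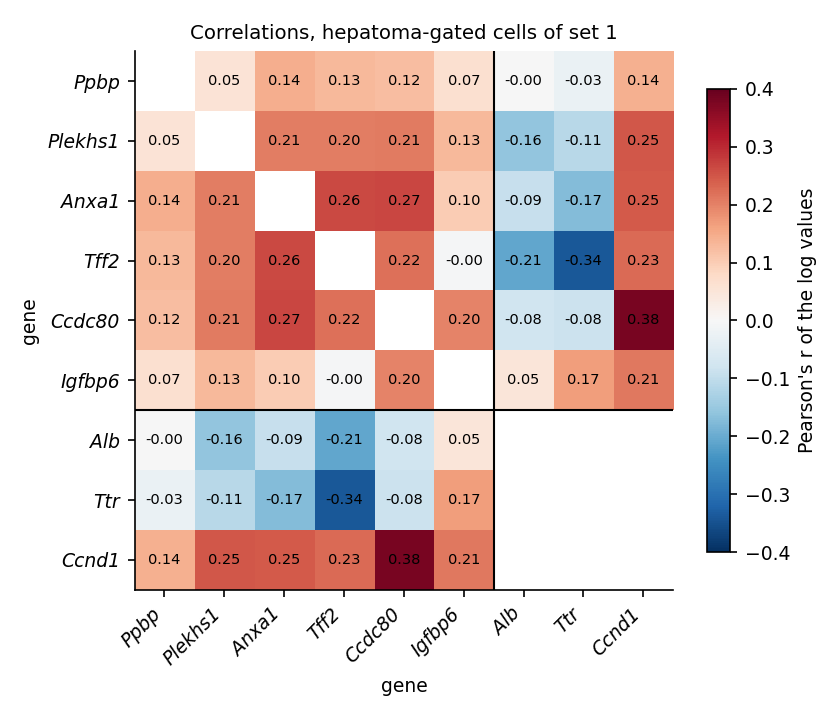
Pearson's r between the 6 genes, and of each with Alb, Ttr and Ccnd1, over the 5098 hepatoma-gated cells of set 1. Both axes list genes and colour gives r. Red fills the block of the 6 genes apart from Tff2 with Igfbp6, the Ccnd1 row is red throughout, and Tff2 with Ttr is the deepest blue at -0.340.

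In the other 5 sets the median r of the 15 pairs was 0.177, 0.174, 0.223, 0.192 and 0.213 for sets 2 to 6. In all, 14 of the 15 pairs were positive in 6 of 6 sets, and Tff2 with Igfbp6 was positive in 5, ranging from -0.00434 to 0.115. Those 5 sets carry values changed by an unrecorded step, so they are not clean repeats of set 1. Anxa1 with Ccdc80 ranged from 0.266 to 0.368 and Anxa1 with Tff2 from 0.230 to 0.306.

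With the gate used here the 6 genes split into 5 and 1 against Ttr and Alb, and against Ccnd1 they had 1 sign. The split against Alb did not hold under other settings. Ttr was negative with Ppbp, Plekhs1, Anxa1, Tff2 and Ccdc80 and positive with Igfbp6 in 6 of 6 sets. In set 1 the r with Ttr was -0.340 for Tff2, -0.172 for Anxa1, -0.110 for Plekhs1, -0.0844 for Ccdc80, -0.0271 for Ppbp and 0.168 for Igfbp6. Of 1027 detected genes, 41.2% had a negative r with Ttr. Alb gave the same signs in 6 of 6 sets, with -0.208 for Tff2, -0.159 for Plekhs1, -0.00280 for Ppbp and 0.0492 for Igfbp6 in set 1, and 47.5% of detected genes were negative with it. The value for Ppbp is no relation. These signs changed in set 1 under other settings. Without cells that had a cell cycle gene, which left 702 shallower cells, r with Ttr was 0.0867 for Ccdc80 and 0.0327 for Ppbp, and the median over the 6 was -5.763e-05. As Spearman's rho, Ppbp with Ttr was 0.00953. With the stricter gate, Igfbp6 with Alb was -0.0129 and Ppbp with Alb was 0.0588, both with the sign changed. With the wider gate described above, Ccdc80 with Alb was 0.0185 and the median r with Alb moved from -0.0856 to -0.0193. Ccnd1 was positive with all 6 genes in 6 of 6 sets, against 62.5% of detected genes in set 1. Its r in set 1 was 0.378 for Ccdc80, 0.248 for Plekhs1, 0.246 for Anxa1, 0.225 for Tff2, 0.211 for Igfbp6 and 0.141 for Ppbp.

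**Figure D3:**
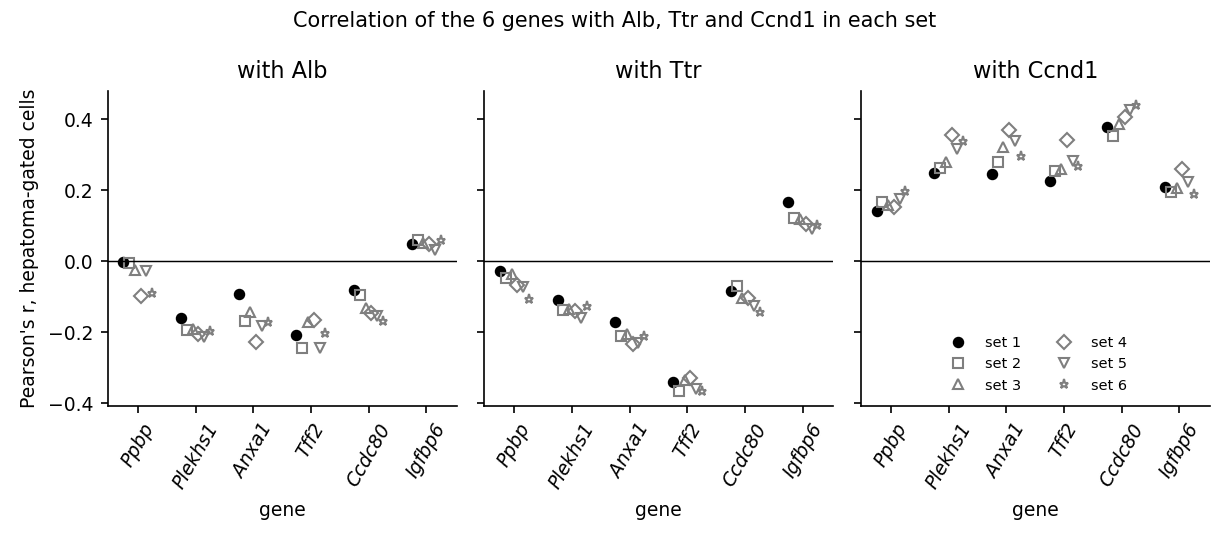
Pearson's r of each of the 6 genes with Alb, Ttr and Ccnd1 in hepatoma-gated cells, 1 point per set, with set 1 filled. All Ccnd1 points lie above 0, and Igfbp6 alone lies above 0 for Alb and Ttr in each of the 6 sets.

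Pooled levels show the size of these relations. Hepatoma-gated cells of set 1 were ranked by Ttr and cut into 3 equal groups, the lowest with 1700 cells. Tff2 was at 456 CPM in the lowest group (449 to 462), 192 CPM in the middle and 49.3 CPM in the highest (47.3 to 51.3), a highest-to-lowest ratio of 0.108. Anxa1 went from 62.3 to 31.7 to 20.3 CPM, Plekhs1 from 48.6 to 23.3 CPM and Ppbp from 17.9 to 8.83 CPM between the lowest and highest groups. Ccdc80 had a ratio of 0.556 and Igfbp6 one of 1.36 (1.31 to 1.42). With 1 CPM added to both levels, 3 of the 6 genes (Tff2, Anxa1 and Plekhs1) had a ratio of 0.5 or less, beside 10.6% of 1345 genes, and Ppbp was just outside at 0.521. Tff2 was the extreme of the 6. The median depth was 15999 UMIs in the lowest Ttr group and 23145 in the highest, and its part in these ratios was not tested.

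Ranked by Alb, the ratio was 0.301 for Plekhs1, 0.327 for Tff2, 0.474 for Anxa1, 0.559 for Ccdc80, 0.847 for Ppbp and 1.06 for Igfbp6. With 1 CPM added, 3 of the 6 had a ratio of 0.5 or less, beside 3.64% of genes. Ppbp did not follow Alb in order, with 12.5 CPM in the lowest, 14.0 in the middle and 10.6 in the highest Alb group. The median depth was 13521 UMIs in the lowest Alb group and 23596 in the highest, and its part was not tested.

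Ranked by Ccnd1, each of the 6 genes was higher in the highest group than in the lowest. Ccdc80 was at 25.7 CPM in the lowest, 49.4 in the middle and 103 in the highest group, a ratio of 4.02 (3.75 to 4.32). The ratio was 3.71 for Plekhs1, 3.64 for Anxa1, 3.07 for Ppbp, 2.60 for Tff2 and 1.82 for Igfbp6. With 1 CPM added, a ratio of at least 2 was reached by 5 of the 6, beside 14.2% of genes. The median depth was 16114 UMIs in the lowest Ccnd1 group and 21702 in the highest, and its part was not tested. Under the wider gate of 6801 cells the Ccnd1 ratios ran from 1.90 for Igfbp6 to 4.42 for Ccdc80, and the Ttr ratio of Tff2 was 0.121.

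**Figure D4:**
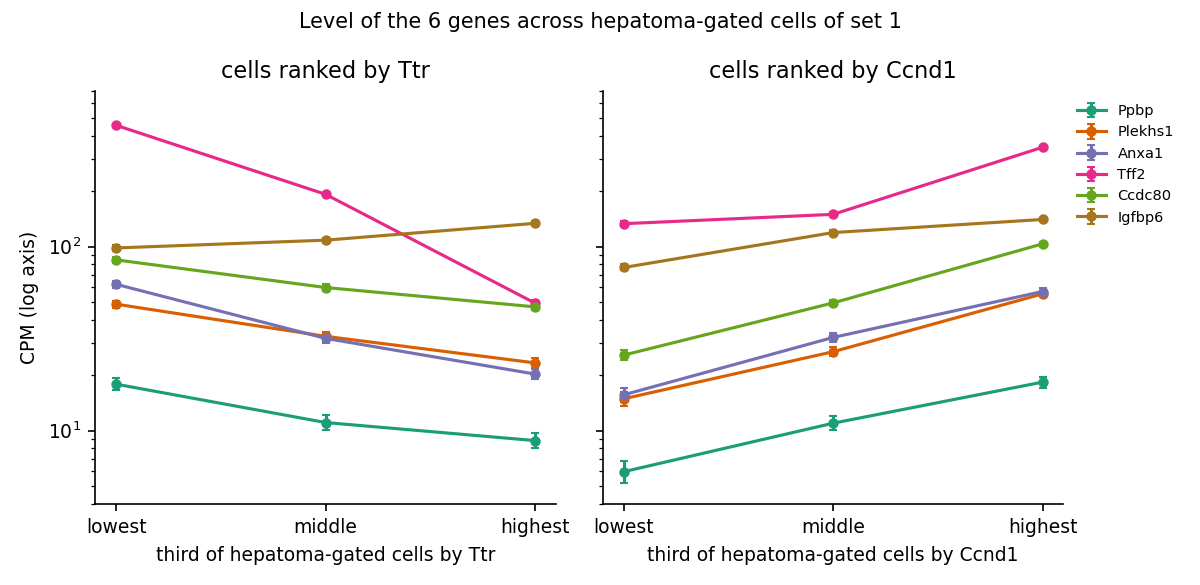
Level in CPM, on a log axis, of the 6 genes in hepatoma-gated cells of set 1 cut into 3 equal groups by Ttr (left) or Ccnd1 (right), with 95% Poisson intervals. Tff2 is at 456 CPM in the lowest and 49.3 CPM in the highest Ttr group, Igfbp6 alone of the 6 is highest in the highest Ttr group, and all 6 are higher in the highest than in the lowest Ccnd1 group.

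Joint detection follows from how the 6 genes were chosen and is given as a description. With cells thinned to 5000 UMIs, which left out 283, 4 or more of the 6 genes had a UMI in 165 of 4815 cells (3.43%). Multiplying the single-gene shares would give 1.26%. Cells with none of the 6 made up 29.5%, beside 23.8% from the product, and 1 cell had all 6.

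**Figure D5:**
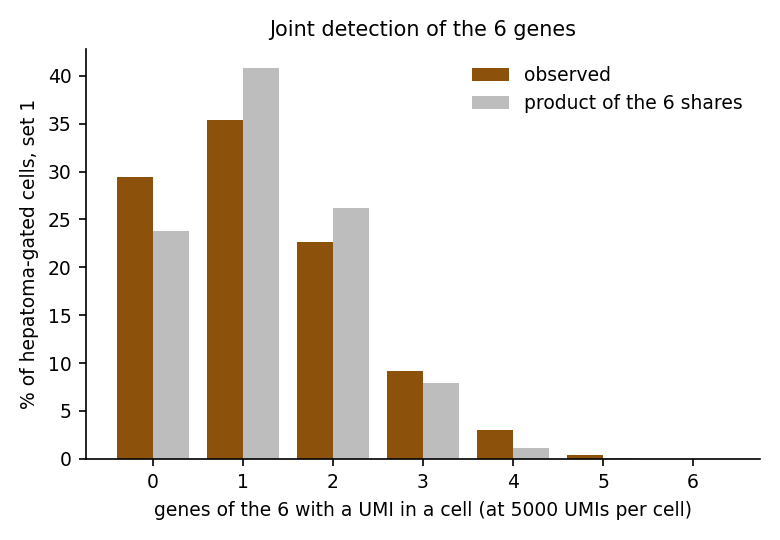
Share of hepatoma-gated cells of set 1, each thinned to 5000 UMIs, by how many of the 6 genes had a UMI. Brown bars are observed shares and grey bars are products of the 6 single-gene shares. Observed bars are higher at 0 and from 3 genes up, and lower at 1 and 2.

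Cells with a Ppbp UMI had higher levels of the other 5 genes before depth was made equal, and of Anxa1 and Tff2 afterwards. The 668 hepatoma-gated cells with a Ppbp UMI had 55.6 CPM of Anxa1 and the 4430 without had 31.6 CPM, a ratio of 1.76 (1.66 to 1.88). The ratio was 1.69 for Tff2, 1.52 for Ccdc80, 1.35 for Plekhs1 and 1.23 for Igfbp6, and the median gene stood at 1.00. None of the 5 reached 2, which 0.446% of 1345 genes did. Ccnd1 was at 1.46, Alb at 1.04 and Ttr at 0.994. Cells with a Ppbp UMI were deeper, with a median of 30886 against 17923 UMIs. At 2000 UMIs per cell, 93 cells still had a Ppbp UMI, and the ratio was 2.88 (1.66 to 4.68) for Anxa1 and 2.05 (1.63 to 2.57) for Tff2. At that depth Ccdc80 was at 1.13 (0.600 to 1.95) and Igfbp6 at 1.26 (0.818 to 1.85), and Plekhs1, from 4 UMIs, at 0.679 (0.184 to 1.76), all with intervals that include 1. With the stricter gate, at full depth, Plekhs1 was at 0.981 and Igfbp6 at 0.978.

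Splits by Anxa1 or Ccdc80 gave larger ratios at full depth, and no values at equal depth are given for them. Cells with a UMI were again deeper, with a median of 30083 against 15163 UMIs for Anxa1 and 26538 against 13416.5 for Ccdc80. Between cells with and without an Anxa1 UMI the ratio was 2.54 for Tff2, 2.36 for Ppbp, 2.16 for Plekhs1, 1.86 for Ccdc80 and 1.28 for Igfbp6. Of all genes, 0.743% reached 2 in that split. Between cells with and without a Ccdc80 UMI, Anxa1 was at 2.57, Ppbp at 2.43 and Plekhs1 at 2.25, where 0.967% of genes reached 2 with 1 CPM added. In the split by Igfbp6, Tff2 was lower in the cells with a UMI, at 0.921 (0.893 to 0.9501), and Ttr was higher, at 1.60 (1.56 to 1.64). The same split gave 1.51 for Ccdc80. Its median depth was 24135.5 UMIs in cells with an Igfbp6 UMI and 10504.5 in cells without. The part of depth in these splits was not tested.

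One fibroblast marker, decorin (Dcn), was higher with several of the 6 genes inside the hepatoma gate. Fibroblast markers summed to 33.8 CPM in hepatoma-gated cells and 31250 CPM in fibroblast-gated cells. Col1a1, Col1a2, Col3a1, Lum, Postn, Pdgfrb and Thy1, 7 of the 8 markers, had r between -0.0472 and 0.0305 with each of the 6 genes, and none was at 0. Dcn alone made up 17.3 of the 33.8 CPM, and it had r of 0.241 for Tff2, 0.224 for Ccdc80 and 0.206 for Anxa1. In the Ppbp split the ratio was 0.762 for Col1a1 (0.572 to 1.00) and 1.40 for Dcn (1.27 to 1.53). With 1 CPM added, the ratio for Dcn was 2.18 in the split by Anxa1, 2.20 in that by Ccdc80 and 2.02 in that by Tff2. The part of fibroblast RNA in the correlations of the 6 genes was not tested for Dcn. With hepatoma-gated cells that had a fibroblast gene left out, a step chosen after seeing the data, 3860 cells remained and the median r of the 15 pairs was 0.1496.

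The genes most like each of the 6 in hepatoma-gated cells of set 1 were taken as the 5 with the highest r outside the 6. For Ppbp they were Msln (mesothelin, 0.155), Anxa3 (0.153), Pls3, Aldh1a1 and Krt7. For Anxa1 they were Ly6a (0.299), Anxa3 (0.271), Ccnd1, the biliary keratin Krt19 (0.245) and Gipc2. Plekhs1 was closest to Ccnd1, Ly6a (0.245), Anxa3, Tns4 and Ubd. Ly6a encodes the surface protein Sca-1, used to mark stem and progenitor cells, and Anxa3 is a further annexin. Ly6a was among the 5 for 4 of the 6 genes, and Anxa3 for 3.

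Tff2 had the strongest neighbour of all. Its r with Tff1, the trefoil gene beside it on chromosome 17, was 0.4995 in set 1 and 0.417 to 0.471 in the other 5 sets. In RefSeq the order there is Tff3, Tff2, Gm15318 and Tff1. Gm15318, a long noncoding RNA that overlaps Tff1 and cannot be told from it without strand, had an r of 0.263 with Tff2, and Tff3 had 0.155. The next neighbours of Tff2 were Ly6a (0.336), Krt19 (0.333), Fam25c and the laminin gene Lamb3. Tff1 UMIs were at 75.6 CPM in cells with a Tff2 UMI and 18.7 CPM in cells without.

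Ccdc80 and Igfbp6 shared Aldh1a1 and Eno3 among their 5, and Aldh1a1 was also among those of Ppbp. Ccdc80 was closest to Ccnd1 (0.378), the retinal dehydrogenase gene Aldh1a1 (0.349), Serpinb7, the muscle-type enolase gene Eno3 and Ly6a. Igfbp6 was closest to the matrix gene Tgfbi (0.320), Notum (0.294), Aldh1a1, Eno3 and Nkd1 (0.269). Notum and Nkd1 encode secreted and intracellular inhibitors of Wnt signalling that are themselves Wnt target genes. Tff2 was negative with them, at -0.192 for Notum and -0.0729 for Nkd1, and at -0.280 for Tgfbi, while Ppbp was at 0.0722, 0.0888 and 0.0331.

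Ppbp lies among chemokine genes on chromosome 5, between Cxcl5 and Pf4 and near Cxcl3, Cxcl15, Cxcl1 and Cxcl2. Their r with Ppbp in tumour cells was low, and that of Pf4 (0.0654) was as high as that of Igfbp6 (0.0651). It was 0.0367 for Cxcl5, 0.0329 for Cxcl15, 0.0218 for Cxcl3, 0.00133 for Cxcl2 and -0.0517 for Cxcl1. Cxcl15 and Cxcl3 were abundant in hepatoma-gated cells, at 213 and 211 CPM. A fixed list of chemokine and chemokine receptor genes, Pf4 among them, had 7 of its 8 genes in the table. Its median ratio in the Ppbp split was 1.01, from 0.707 for Cxcl1 to 1.42 (1.09 to 1.84) for Pf4, the adjacent gene and platelet marker, which had 82 UMIs in cells with a Ppbp UMI and 222 in cells without. Cxcl15 was at 1.15. The receptor gene Cxcr2 had 20 UMIs in cells with a Ppbp UMI and 104 in those without.

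Hepatocyte genes were mostly negative with the 6. Of 1022 other detected genes, 63 (6.16%) had a mean r with the 6 of at least 0.1 and 168 had -0.05 or less. The hepatocyte list had 10 of 14 detected genes at -0.05 or less and none at 0.1 or more. In the Ppbp split its median ratio was 0.664, with Ahsg (fetuin A) at 0.486 and Hp (haptoglobin) at 0.457. Afp, a fetal relative of albumin, was near level at 0.919. Across all genes the lowest mean r belonged to Ahsg (-0.236), then Pzp, Ambp, Kng1 and Fgg, which encode plasma proteins, and the highest to Ccnd1 (0.242), Anxa3 (0.218), Ly6a (0.204), Aldh1a1 (0.193) and Fam25c (0.180). Of the hepatocyte list, Afp, Apoa1, Apoa2, Ahsg, Fgb and Serpina1b, all at -0.05 or less, are also gate markers, so its count is not independent of the gate. Fga, outside the list, is a gate marker too. Under the wider gate, which does not use Ahsg or Fga, the mean r was -0.171 for Ahsg, -0.121 for Fga and -0.159 for Pzp. No count for the list under that gate is given.

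Of the other lists, hypoxia genes had 6 of 7 at a mean r of -0.05 or less, with Ndrg1 at -0.137, where its r was -0.240 with Igfbp6, -0.238 with Ccdc80 and -0.0453 with Tff2. The IGF axis had 3 of 3 detected genes at -0.05 or less. Igfbp3 had r of -0.290 with Igfbp6 and -0.0121 with Tff2, and Igfbp1 had -0.156 and -0.0478. Among progenitor and mesenchymal-type genes 3 of 8 reached 0.1, Krt7 (0.156), Krt19 (0.152) and Epcam (0.119). Tm4sf1 was at 0.0961, S100a4 at 0.0248, Spp1 at 0.00256, Sox9 at -0.0301 and fibronectin (Fn1) at -0.145. Spp1 had r of 0.155 with Tff2 and -0.161 with Igfbp6. Annexins and formyl peptide receptors had 2 of 3 at 0.1 or more, Anxa3 and S100a11 (0.122), and the receptor gene Fpr2 had 7 UMIs in cells with a Ppbp UMI. Trefoil factors and mucins had 1 of 2, Tff1 (0.117).

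Cell cycle genes had 1 of 8 at 0.1 or more, Pcna (0.103), and a median ratio of 1.22 in the Ppbp split. Mki67 had r of 0.137 with Ccdc80 and -0.00486 with Ppbp. The AP-1 and immediate early genes had 0 of 5 at 0.1 or more, and Fosl1 had r of 0.173 with Tff2 and -0.0967 with Igfbp6. The YAP and TEAD targets were Ankrd1 and Areg. Ankrd1 had r of 0.180 with Tff2 and 0.00153 with Ppbp, and Areg had 0.107 with Tff2 and -0.215 with Igfbp6.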

How the data were processed

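Hepa1-6 tumours were dissociated and their cells run on a DNBelab C4 instrument. The submitters' processing notes give STAR 2.7.2b as aligner and list both GRCh38 and mm10. PISA did the counting, and barcodeRanks of DropletUtils the choice of cells, per the series' design text. The steps to the pooled table are not given in the sources used here. The deposited values are on a natural log scale. All 53528 columns belong to no known sample, and the 6 sets are reported as unassigned samples.

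The 6 genes, the marker lists and the gene lists were chosen with earlier results of these data known. In set 1 a UMI total was recovered for 100% of cells (tolerance 1e-06), and 100% of nonzero values were whole UMIs within 0.01. A cell joined a class where its mean marker value, scaled to the 99th percentile of its set, was at least 0.2 and no other class exceeded 0.5 times that. The fixed lists gave 14 hepatoma, 8 fibroblast, 6 macrophage, 8 neutrophil and 9 T cell markers in the table. Scrublet (scanpy 1.11.5) called 91 of 9370 cells doublets (0.971%), which were kept and left out in an alternative. CPM is the summed UMIs of a gene over the summed totals of a class. Printed intervals are 95% (exact Poisson, or exact conditional Poisson for ratios), cover counting error only and do not cover variation between cells or animals. To sort alternative values, shares had exact binomial intervals and correlations had Fisher z intervals, and both take cells as independent. Fold thresholds of 2 and 0.5 were applied with 1 CPM added, to genes with at least 100 UMIs, and correlations to genes in at least 5% of hepatoma-gated cells. Named genes were, outside the 6, the 5 with the highest r for each gene, the 10 with the highest and lowest mean r, and the members of the fixed lists. Genes from the 3 groups by Alb, Ttr or Ccnd1, and the further splits, were added after the first values were seen. The ratio and correlation steps were tested on simulated data. No p-value was computed, since there is 1 pooled sample.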

Additional observations from a re-analysis of the deposited data

Results flagged for a closer look

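The mean Ppbp value in fibroblast-gated cells was -0.0442 in set 3, while the other 5 sets lay between 0 and 0.0136. In neutrophil-gated cells it was 0.0704 in set 3 and between -0.00433 and 0.0205 in the others. In each case the set stood apart from the other 5 by a large part of the whole range (0.765 and 0.668 of it). In all, 34 groups of 6 values, 1 per set, were checked this way (the means of each gene in each class, and 4 median correlations), and chance flags about 1 in 20. Set 3 holds values below 0, and the part of the unrecorded step in both values was not tested.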

How the results depend on the processing

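No paired analysis was possible because the cell sets carry no replicate number and belong to no labelled group. Apart from the summaries, 224 alternative values for single genes and pairs stayed within the interval of the main value, 159 moved outside it and 22 changed sign. The cause was not tested unless stated. With the stricter gate 1 of the 6 genes, in place of 3, was highest in hepatoma-gated cells.

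The median share of hepatoma-gated cells with a UMI of the 6 genes, 8.21% in a second random thinning to 2000 UMIs, separate from the one behind the shares above, was 5.47% with the stricter gate, 4.43% at 1000 UMIs and 17.3% at 5000 UMIs.

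The median r of the 15 pairs, 0.144, was 0.0947 with the stricter gate, 0.178 as Spearman's rho, 0.0413 in cells thinned to 2000 UMIs and 0.113 without cells with a cell cycle gene, which left 702 shallower cells (median 9102 UMIs). The median r with Ccnd1, 0.236, was 0.164, 0.0964 thinned and 0.149 without cycle-gene cells. The median r with Alb, -0.0856, was -0.0518 with Leiden clusters in place of gates, -0.0193 with the wider gate, -0.131 given the UMI total, -0.0519 thinned and -0.0289 without cycle-gene cells. The median r with Ttr, -0.0970, was -0.0637 with Leiden clusters, -0.0507 with the wider gate, -0.0518 as Spearman's rho, -0.0291 thinned and -5.763e-05 without cycle-gene cells.

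Some signs changed. For Ppbp with Alb the value was 0.0588 with the stricter gate, 0.00234 with Leiden clusters, 0.0185 with the wider gate, 0.0280 as rho and 0.0114 thinned. Tff2 with Igfbp6 was 0.0404, 0.0223, 0.0374 and 0.0359 under the first 4 of these. Igfbp6 with Alb was -0.0129 with the stricter gate, -0.000245 given the UMI total and -0.0101 thinned. Ppbp with Ttr was 0.00953 as rho and 0.0327 without cycle-gene cells. Ccdc80 with Alb was 0.0185 with the wider gate and 0.0404 without cycle-gene cells, where Ccdc80 with Ttr was 0.0867 in place of -0.0844 and Anxa1 with Igfbp6 was -0.0203. Ppbp with Plekhs1 was -0.0111 thinned.

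The median ratio of the 5 other genes in the Ppbp split, 1.51, was 1.20 with the stricter gate, 1.64 with Leiden clusters, 1.65 with the wider gate, 1.26 thinned and 1.44 with 10 CPM added, and 2.11 in the split by Anxa1. Plekhs1 (0.981) and Igfbp6 (0.978) turned below 1 with the stricter gate, and Plekhs1 (0.689) when thinned.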

Other observations

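Beyond the genes above, 6 of 1345 genes had a ratio of at least 2 between hepatoma-gated cells of set 1 with and without a Ppbp UMI, with 1 CPM added to both levels. Krt14, a keratin of basal epithelium, was highest at 2.90 (91 against 55 UMIs), followed by the collagen gene Col8a1 (2.38), Gm17225 (2.26), the integrin gene Itgb7 (2.07), Msln (2.04) and Tnfrsf11b (2.04), which encodes osteoprotegerin. At the other end 8 genes had a ratio of 0.5 or less. They were Orm1 (0.353), Fabp4 (0.449), Hp (0.462), Fga (0.469), Creb3l3 (0.472), Ahsg (0.487), Spink1 (0.491) and Vtn (0.497), most of them genes of plasma proteins or liver metabolism. These lists were read from the values and carry no test.

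Cells with a Plekhs1 UMI had 35.3 CPM of Ubd, a ubiquitin-like gene induced by interferon, against 14.4 CPM without, and 75.8 against 33.9 CPM of the interferon-induced chemokine gene Cxcl9. In the Ccdc80 split Serpinb11 stood at 2.64 and Ubd at 2.21. In the Igfbp6 split 2 genes reached 2, Notum (2.14) and the mitotic kinase gene Aurkb (2.09). In the Tff2 split Tff1 stood at 3.88, Bex1 at 2.99 and the lectin gene Clec2g at 2.12. These splits are at full depth, where cells with a UMI had a higher median of total UMIs than cells without.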
